A study of Danio rerio with 10 samples.

Results

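Cells were selected from whole zebrafish embryos by the RNA of elavl3 (HuC), an RNA-binding protein made by newly born neurons. A cell that passed quality control (QC; at least 1500 UMIs, at least 750 genes and less than 5% mitochondrial UMIs) was taken if it held at least 1 UMI of elavl3 and at least 1 UMI of at least 2 of the 6 genes myt1a, neurod4, scrt2, stmn1b, dlb and drgx. A UMI is 1 counted RNA molecule. The rule found 1047 of 16837 QC cells (6.22%), and 34.8% of the 3007 cells with any elavl3 UMI. The working name for such cells, early differentiating neurons of the spinal cord, was checked against markers. At an equal depth of 3000 UMIs per cell, its neuronal part held for the 411 cells that still passed the rule. It was weak in the 606 cells that did not. The spinal part did not hold, so all of them are called elavl3-selected cells here.

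The 10 libraries each came from 1 whole embryo of the Tubingen strain, at the 3 somite stage by the labels, while the study's text gives a slightly later one. There were 3 dact1/2 mutant embryos (dact1-/-;dact2-/-), 3 gpc4 mutant embryos (gpc4-/-, from the line hi1688Tg) and 4 wildtype (WT) embryos. Dact1 and Dact2 are adapter proteins of Wnt signaling, whose genes were mutated with CRISPR/Cas9, and gpc4 codes for a heparan sulfate proteoglycan of the cell surface. All of the alleles are carried in every tissue. Mutants were picked by their truncated body axis, so the genotype and the body shape cannot be told apart in any comparison with WT. The study states that these embryos could not be genotyped, and reports that they clustered well by genotype. The genotypes given here are those of the labels. The study set the mutants side by side to separate what dact1/2 and gpc4 change during axis extension.

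Neurons of the zebrafish neural plate are born from SoxB-positive progenitors under proneural basic helix-loop-helix factors such as Neurog1. These factors switch on Delta ligands, which signal through Notch receptors to hold neighboring cells as progenitors, and then a second tier of factors (Neurod, Ebf, Insm1, Myt1) and the neuronal machinery. The first neurons at these stages include Rohon-Beard cells, the large mechanosensory neurons of the dorsal spinal cord, along with trigeminal sensory neurons, primary motor neurons and early interneurons.

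Depth differed between cells and libraries. Each library held 976 to 2655 QC cells and 10388568 to 26475500 UMIs in them, and the median UMI count of a cell was 4229.5 to 11255 over the libraries. Barcodes were shared by few libraries, with 0 to 4 per pair over 45 pairs and 56 barcodes of 21924 in more than 1 library. WT replicate 1 stood apart. In the elavl3-selected cells its mean distance to its own genotype was 1.01, against 0.662 to 0.688 in the other WT embryos. Its 11 stress genes summed to 4953 CPM (counts of UMIs scaled to a fixed library total) against 872 to 1021 in them. The heat shock gene hspb1 alone gave 4897 CPM of its sum, which thus mainly reflects that gene. Results that rest on it are given with and without it.

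The number of cells found depended on depth. The rule took 2.16% of the QC cells with 1500 to 5000 UMIs, 4.11% at 5000 to 15000, 18.1% at 15000 to 40000 and 49.8% of the 562 cells over 40000. The median elavl3 level of the selected cells ran the other way, with 1580, 672, 234 and 114 CPM in the same order. Elavl3 is a gene of the rule, and 1 UMI is a lower level in a deeper cell, so the rule itself partly sets this order. Many cells were selected with few molecules, with a median of 6 elavl3 UMIs, a highest of 194, and 143 cells with 1. On the other side 413 cells (39.4%) had 10 or more. Of the 1047 cells, 370 carried 2 of the other genes, 289 carried 3, 209 carried 4, 135 carried 5 and 44 carried all 6. The 370 cells just inside the rule had a median elavl3 level of 147 CPM, and the 655 elavl3-positive cells just outside it, with 1 of the 6 genes, had 127 CPM.

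**Figure D1:**
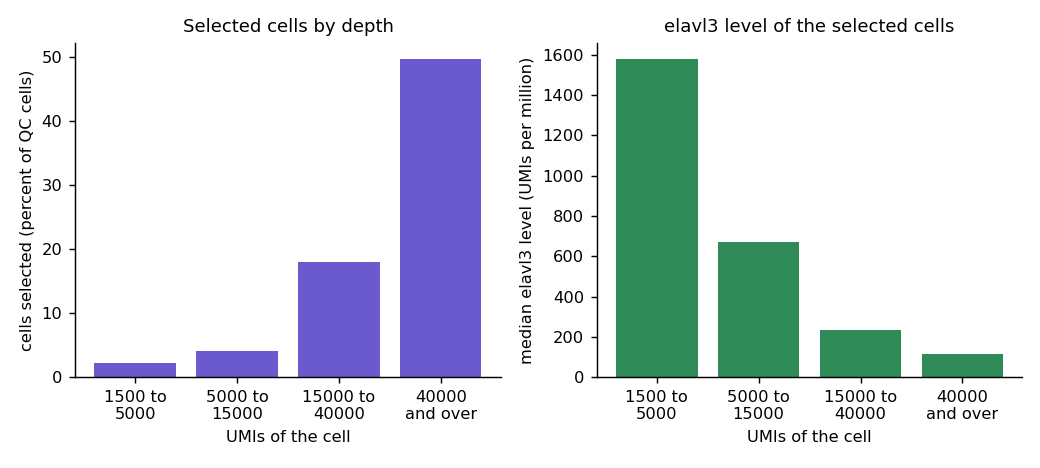
Left, share of QC cells selected by the rule (percent) in bins of the UMI count of the cell, and right, median elavl3 level of the selected cells in the same bins (CPM). The share is 2.16% in the shallowest bin and 49.8% in the deepest, while the median elavl3 level is 1580 CPM in the shallowest and 114 CPM in the deepest. Elavl3 is a gene of the rule, which partly sets the order of its levels.

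To compare cells at 1 depth, every cell was thinned to 3000 UMIs and the rule was applied again, a choice made after seeing this dependence. At that depth 411 cells still passed, all of them among the 1047, while 606 did not and 30 had fewer than 3000 UMIs. The 411 cells had a median of 8736 UMIs before thinning and an elavl3 level of 1365 CPM, against 29327.5 UMIs and 153 CPM in the 606 and 5499 UMIs in all cells outside the rule. Passing the rule again after thinning itself favors cells with a high elavl3 level, so the contrast in elavl3 is partly set by that choice. The cells over 40000 UMIs made up 65.7% of all UMIs of the 1047 cells and the 411 cells 19.5%, so that sums over all UMIs mainly describe deep cells with little elavl3. No doublet caller was run. The epidermal keratin krt4 had a UMI in 33.6% of the 411 cells and 33.3% of the SoxB progenitors, but in 56.9% of the 606 cells, and the tight junction gene cldni in 14.1%, 15.4% and 31.2%. The 8 epidermal markers all had UMIs in the 1047 cells and summed to 1415 to 1515 CPM in dact1/2 mutants, 1482 to 2172 CPM in gpc4 mutants and 896 to 2207 CPM in WT. At 3000 UMIs these markers averaged 1555 CPM over embryos in the 606 cells and 1156 CPM in SoxB progenitors. Neural crest (251 against 140), paraxial mesoderm (437 against 320) and blood and vessel markers (159 against 79.1) were also higher in the 606 cells. Notochord (114 against 156), hatching gland (190 against 227) and endoderm markers (27.8 against 36.7) were lower. Whether doublets account for the 606 cells was not tested.

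The rule genes mark the cells by construction and are given as values. Of the 411 cells at 3000 UMIs, the zinc finger factor myt1a was found in 88.6%, the Delta ligand dlb in 63.7%, the bHLH factor neurod4 in 45.3%, the microtubule regulator stmn1b in 41.1%, the Snail-family repressor scrt2 in 36.3% and the homeobox gene drgx in 25.3%. SoxB progenitors, the 2263 cells at this depth with no elavl3 UMI and UMIs of at least 2 of sox2, sox3 and sox19a, held them in 0.221% to 6.01% of cells. Blood and vessel cells, which should lack them, held them in 0% to 2.30%.

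Genes that the rule did not use were high in the same cells. All comparisons with other cells are descriptions without a test, since the cells were chosen on their RNA. Of 2505 genes at 50 CPM or more in the 411 cells, 124 (4.95%) were at least 2-fold above the SoxB progenitors with 10 CPM added to both sides, and 74 of these were higher in all 10 embryos. The other way, of 2485 genes at 50 CPM or more in SoxB progenitors, 41 were at least 2-fold below them in the 411 cells, 35 of these in all 10 embryos. Genes entered each count through the group where they could be high, so neither count is support for a difference. Over all UMIs of the 1047 cells the same count was 9 of 2249 genes (0.400%). Neurod1, a bHLH factor of the second tier, had 242 ± 73.3 CPM in the 411 cells and 4.43 ± 5.65 in SoxB progenitors (SD, n = 10 embryos). It was found in 27.3% of the 411 cells (exact 95% interval 23.0 to 31.8), against 0.354% of SoxB progenitors and 0.177% of blood and vessel cells, and its share ran between 17.9% and 36.0% over the embryos. These intervals cover counting error only.

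Other factors of neuronal differentiation were high in the same cells. The Ebf factors ebf2 and ebf3a were found in 48.7% and 38.9% of the 411 cells, against 3.23% and 3.18% of SoxB progenitors, although ebf3a also had UMIs in 10.5% of blood and vessel cells. The zinc finger factors myt1b and insm1b were found in 30.7% and 32.4%, against 1.50% and 0.972%. The homeobox gene onecutl was found in 31.4% and the bHLH gene nhlh2 in 23.8%, against 0.840% and 0.309%. The neural splicing factor srrm4 (31.6%, against 0.884%) and the axonal adhesion gene nfasca (46.7%, against 4.77%) followed the same order. All 8 were at intermediate levels in the 606 cells, at 2.64% to 11.2%.

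The leading genes by fold also held structural genes. The intermediate filament gene vim had 439 ± 149 CPM in the 411 cells and 17.2 ± 7.71 in SoxB progenitors, and the tubulin gene tuba8l3 had 262 ± 96.7 and 6.88 ± 5.90 CPM (SD, n = 10 embryos). The synaptic protein gene sncb had 160 ± 110 and 2.60 ± 2.14 CPM, and the retinoic acid binding gene crabp1b 142 ± 122 and 1.17 ± 2.17 CPM. Their SDs were wide, with a lowest embryo at 0 CPM for sncb and crabp1b.

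**Figure D2:**
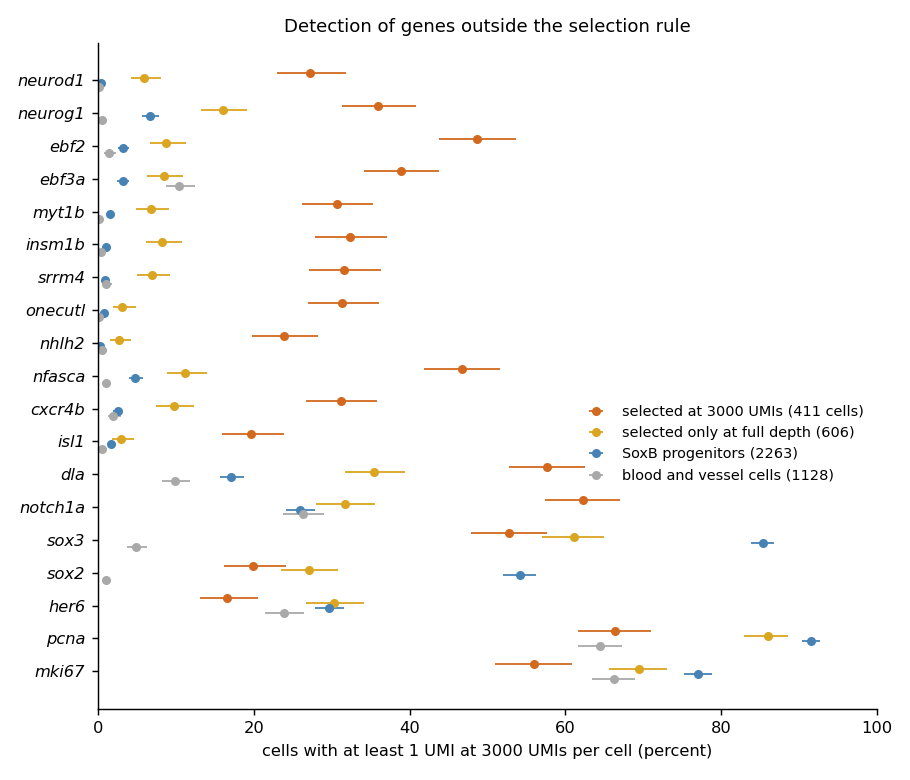
Share of cells with at least 1 UMI (percent, with exact 95% intervals as bars) when every cell is thinned to 3000 UMIs, for genes outside the selection rule. The 411 cells selected at 3000 UMIs lie right of SoxB progenitors for neurod1 (27.3% and 0.354%) down to notch1a, and left of them for sox3 (52.8% and 85.4%) down to mki67.

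Delta ligands and the receptor notch1a were higher in the selected cells. The ligand dla was found in 57.7% of the 411 cells and 17.1% of SoxB progenitors, dld in 19.2% and 4.77%, and dlc in 16.5% and 2.61%, each higher in all 10 embryos. The receptor notch1a was found in 62.3% and 26.0%, and notch3 in 48.2% and 52.2%, with 5 embryos higher and 5 lower. The Hes family repressors went both ways. Her13 (22.6%, against 1.94%) and the Notch target her4.1 (12.2%, against 4.55%) were higher in the selected cells, while her6 (16.5%, against 29.7%), her9 (15.6%, against 31.0%) and her8a (10.9%, against 23.0%) were lower.

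Progenitor and cell cycle genes were lower but not lost. Sox3 and sox19a, SoxB factors of neural progenitors, had UMIs in 52.8% and 47.2% of the 411 cells, and in 85.4% and 84.2% of SoxB progenitors, a group chosen on these genes. The replication clamp gene pcna was found in 66.4% of the 411 cells and 91.6% of SoxB progenitors, the proliferation marker mki67 in 56.0% and 77.1%, and the replication licensing gene mcm2 in 41.6% and 60.3%. Each was lower in all 10 embryos. The cell cycle inhibitor cdkn1ca was found in 57.2% and 22.1%, higher in all 10.

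Genes of spinal and of more anterior levels were both found in the selected cells. At least 1 UMI of 21 spinal Hox genes was found in 65.0% (60.1 to 69.6) of the 411 cells, against 47.1% of SoxB progenitors, 60.3% of all other cells and 48.0% of blood and vessel cells. A set of 17 forebrain, midbrain and boundary genes had a UMI in 44.5% of the 411 cells, against 62.0% of SoxB progenitors, 37.3% of all other cells and 12.9% of blood and vessel cells. Spinal Hox UMIs stood alone in 40.4% of cells, forebrain or midbrain UMIs alone in 20.0%, both in 24.6% and neither in 62 of the 411 cells. Since blood and vessel cells also held spinal Hox UMIs, a spinal Hox UMI does not by itself mark a cell as a spinal neuron.

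Among the 411 cells, groups of genes were detected together. The 104 cells with drgx, a homeobox gene of sensory neurons, held the LIM homeobox gene isl1 in 51.9%, against 8.79% of the 307 cells without drgx, and this held in all 10 embryos. Isl2b, a related gene of Rohon-Beard cells, was found in 36.5% and 0.977%, tlx3b in 35.6% and 4.56%, and pou4f1, a POU factor of sensory neurons, in 29.8% and 1.95%. Some genes of a later neuronal state followed, with elavl4 (HuD) in 35.6% and 4.89%, the growth cone gene gap43 in 30.8% and 3.91% and the axon guidance receptor plxna4 in 30.8% and 2.93%. Other listed neuronal genes went the other way, with nova2 in 59.6% and 85.3% (lower in 9 embryos), myt1b in 23.1% and 33.2% and insm1a in 13.5% and 22.1%. The listed sensory genes isl2a (3.85% and 3.58%) and prdm14 (3.85% and 3.26%) differed little. The SoxB factors sox3 and sox19a had UMIs in 24.0% and 25.0% of the drgx-positive cells, against 62.5% and 54.7% of the others, each lower in 9 embryos, while the related gene sox21a had 11.5% and 11.4%. The Delta ligand dla was found in 33.7% and 65.8% and pcna in 47.1% and 73.0%. Co-detection with the other rule genes is not read, since a cell without drgx had to carry 2 of the other 5. A cell with drgx needed only 1 of them. This difference could also bear on genes outside the rule, such as sox3, sox19a, dla and pcna, and its part was not tested.

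**Figure D3:**
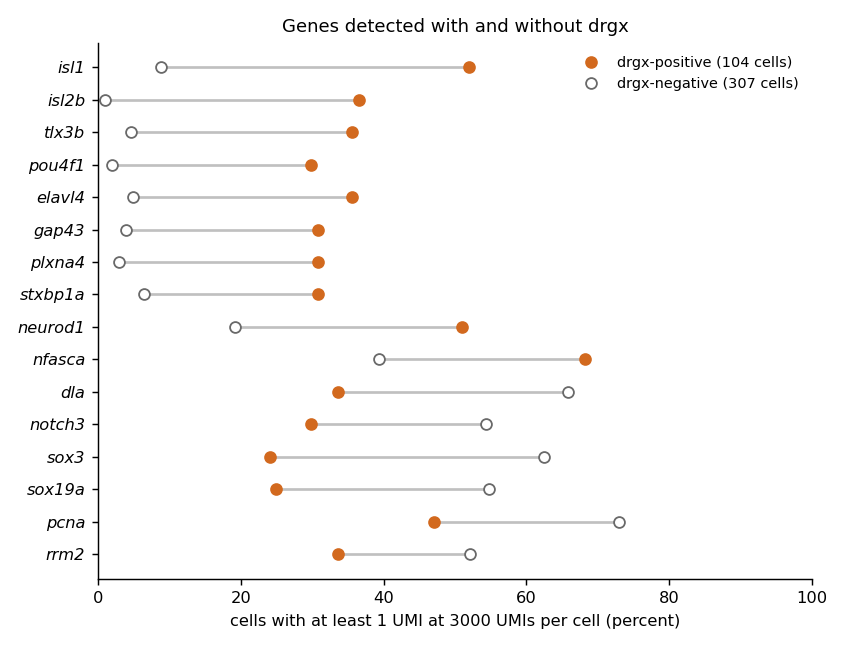
Share of cells with at least 1 UMI of each gene (percent) among the cells selected at 3000 UMIs, split by detection of drgx (filled, 104 drgx-positive cells, open, 307 drgx-negative cells). The genes shown were chosen after their values were seen. Isl1 is at 51.9% in drgx-positive and 8.79% in drgx-negative cells, and sox3 at 24.0% and 62.5%.

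A second set of genes went with the forebrain homeobox gene emx3. The 48 emx3-positive cells held foxg1a, a factor of the telencephalon, in 29.2%, against 3.86% of the 363 cells without emx3, and fezf2 in 29.2% and 4.13%. The preplacodal and neural border gene dlx3b was found in 47.9% and 16.3%, and myt1b in 62.5% and 26.4%. The emx3-positive cells held isl1 in 6.25%, against 21.5%, drgx in 8.33% and 27.5%, and the Hox genes hoxb3a and hoxb1b in 10.4% and 2.08%, against 29.8% and 16.0%. The 36 cells with olig2, a bHLH factor of motor neuron progenitors, held sox3 in 80.6%, against 50.1% of the other 375, and neurod1 in 11.1% and 28.8%. The ventral homeobox genes were sparse, with nkx6.1 in 7 of the 36 cells (19.4%, against 7.73%, higher in 5 embryos and lower in 3) and nkx6.2 in 1 (2.78%, against 5.87%).

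The share of elavl3-selected cells was compared between genotypes over embryos. They made up 9.96%, 5.31% and 5.63% of the QC cells of the dact1/2 mutants, 8.25%, 5.43% and 4.13% in the gpc4 mutants, and 4.91%, 5.69%, 5.83% and 7.38% in WT embryos. The 3 groups overlapped. The means were 6.96 ± 2.60% in dact1/2 mutants (SD, n = 3), 5.94 ± 2.10% in gpc4 mutants (n = 3) and 5.95 ± 1.03% in WT (n = 4), and two-sided exact permutation tests gave p = 0.600 for dact1/2 mutants against WT, 1 for gpc4 mutants against WT and 0.600 for dact1/2 against gpc4 mutants. The smallest p these tests allow is 0.0286 with 4 WT embryos and 0.1 with 3 against 3.

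At 3000 UMIs per cell the shares were 3.49%, 2.66% and 2.61% in dact1/2 mutants, 2.10%, 2.93% and 2.56% in gpc4 mutants, and 0.912%, 2.64%, 3.30% and 3.32% in WT. WT replicate 1 gave 10 cells, with an exact 95% interval of 0.438 to 1.67%, and was the lowest embryo. Exact permutation tests gave p = 0.686 for dact1/2 mutants and p = 1 for gpc4 mutants against WT. Without WT replicate 1 the difference of the dact1/2 mutants from WT turned from 0.374 to -0.169 percentage points (exact permutation p = 0.9). Over the 12 tests of shares, which also set the cells against SoxB progenitors, no Benjamini-Hochberg adjusted p was under 0.990.

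The make-up of the 411 cells was compared by 4 genes, chosen after the values were seen. Drgx is a gene of the rule, so its shares are given without a test, and isl1, emx3 and olig2 gave 9 further tests. Drgx-positive cells were 27.1%, 19.0% and 35.9% of the selected cells in dact1/2 mutants, 24.0%, 18.4% and 20.5% in gpc4 mutants, and 40.0%, 28.6%, 27.4% and 26.9% in WT. Isl1-positive cells were 21.4%, 17.5% and 23.1% in dact1/2 mutants, 16.0%, 10.2% and 15.4% in gpc4 mutants, and 20.0%, 28.6%, 22.6% and 26.9% in WT. For isl1 the gpc4 mutants did not overlap WT, while for emx3 and olig2 they did. Isl1 was found in 51.9% of drgx-positive and 8.79% of drgx-negative cells, so its shares are not independent of that rule gene. The gpc4 mutant mean for drgx was 21.0 ± 2.84%, against 30.7 ± 6.22% in WT (SD, n = 3 and 4). For isl1 it was 13.9 ± 3.18%, against 24.5 ± 3.93% in WT, and the exact permutation p was 0.0286, the smallest possible, with an adjusted p of 0.257, which did not pass. WT replicate 1 contributed 10 cells, and without it the isl1 difference was -12.2 percentage points (exact permutation p = 0.1, the smallest that 3 against 3 allows) and the drgx difference -6.68.

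**Figure D4:**
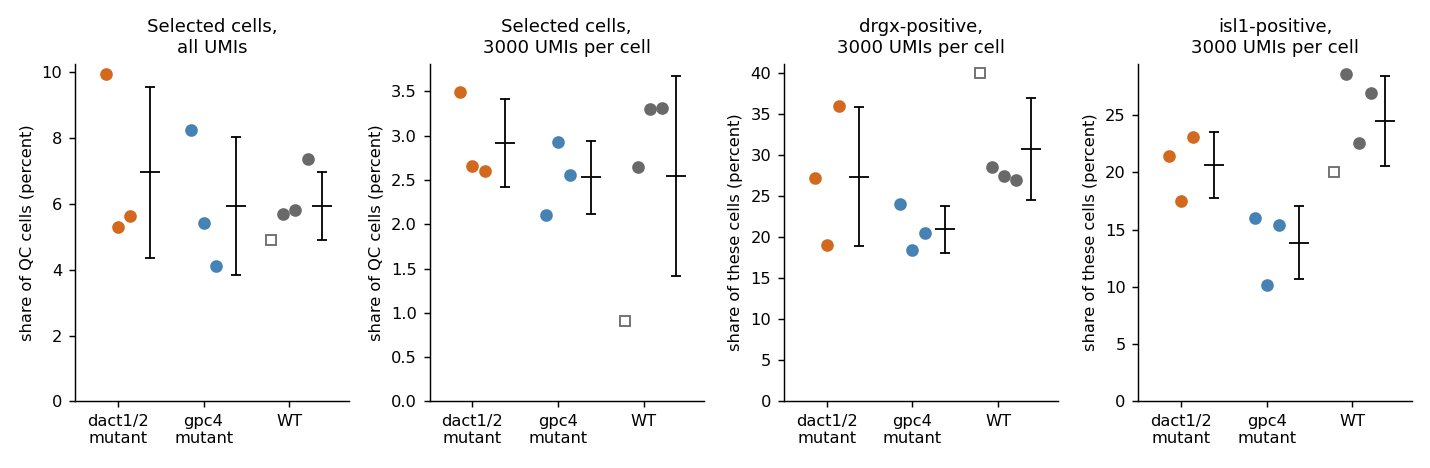
From left, share of QC cells selected by the rule with all UMIs and at 3000 UMIs per cell, and share of the cells selected at 3000 UMIs that held drgx or isl1 (percent). Points are embryos, the open square is WT replicate 1, and the bars give mean and SD. For isl1 the gpc4 mutants lie at 10.2% to 16.0% and the WT embryos at 20.0% to 28.6%.

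The targeted genes were examined in the elavl3-selected cells. Gpc4 had 11.5, 13.4 and 11.6 CPM in gpc4 mutants, against 48.0, 42.1, 44.1 and 51.1 CPM in WT. The groups did not overlap. Gpc4 fell by 1.83 on the log2 scale (SE 0.192, adjusted p = 0.00973, edgeR's quasi-likelihood test with Benjamini-Hochberg adjustment, as in all tests of genes here). With the labelled replicate number as a block, gpc4 was not called. In that fit WT replicate 4, which has no gpc4 mutant of its number, adds nothing to the difference, so fewer embryos bear on it. Dact1 was at or below 0.984 CPM in the dact1/2 mutants and at 1.25 to 3.33 CPM in WT, and it was below the count filter. Dact2 had 18.8, 33.4 and 24.1 CPM in dact1/2 mutants, against 34.3, 26.3, 26.2 and 28.2 CPM in WT, and these overlapped, so that dact2 RNA did not check those labels. By RT-qPCR the study found dact2 RNA raised, not lowered, in its dact2 single mutants. The overlap thus does not speak to the labels either way. Capn8, a calpain protease that the study followed, had 18.8, 19.9 and 15.3 CPM in dact1/2 mutants and 7.49, 13.6, 15.4 and 15.3 CPM in WT (log2 fold change 0.63, SE 0.271, adjusted p = 0.999).

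Few genes differed between genotypes. Calls needed an adjusted p below 0.1 together with a log2 fold change beyond 0.58 in either direction. These limits follow the methods of the study. In dact1/2 mutants against WT 0 of 9983 genes were called (0%) and 433 had an unadjusted p under 0.05. That is fewer than this limit alone would pass among so many genes with no difference between genotypes. DESeq2 called 16 of the 19976 genes with any UMI (0.0801%), a total that includes any genes without an adjusted p. Without WT replicate 1, 39 of 9550 were called (0.408%), 24 higher (0.251%) and 15 lower (0.157%) in the mutants. Among them were the crystallin gene crygn2 (log2 fold change 1.56, SE 0.263, adjusted p = 0.0378), the actin-binding gene ablim1b, which fell by 4.11 (SE 0.493, adjusted p = 0.00353), and the metabolite repair gene naxe, which fell by 1.97 (SE 0.308, adjusted p = 0.0334). Crygn2 had 25.5, 24.9 and 23.6 CPM in dact1/2 mutants and 4.99, 12.7, 6.24 and 9.29 CPM in WT. The heat shock gene hspb1 was also called, at 2005, 1274 and 1695 CPM in dact1/2 mutants, against 4897, 796, 836 and 923 CPM in WT, where WT replicate 1 was above every other embryo. Without that embryo hspb1 was called in gpc4 mutants against WT too, so the call was not particular to dact1/2 mutants. The stress genes summed to 1372 to 2089 CPM in dact1/2 mutants and 1624 to 1941 CPM in gpc4 mutants.

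In gpc4 mutants against WT 5 of 9525 genes were called (0.0525%). The lysosomal enzyme gene aga had 157, 112 and 111 CPM in gpc4 mutants, against 14.0, 10.6, 9.57 and 9.95 CPM in WT. The groups lay apart, and aga rose by 3.62 on the log2 scale (SE 0.281, adjusted p = 0.00197). The retinol-binding gene rbp7b rose (2.58, SE 0.351, adjusted p = 0.0557), and CR847906.1 and the egg coat gene zp3 fell by 2.47 (SE 0.254, adjusted p = 0.00973) and 2.85 (SE 0.378, adjusted p = 0.0557), along with gpc4 itself. With the replicate number as a block 2 genes were called (0.021%). Aga was 1 of them (3.53, SE 0.174, adjusted p = 0.00538), and the ferritin gene fthl31, not called without the block, was the other (-1.97, SE 0.164, adjusted p = 0.0676). Fthl31 had 50.3, 18.4 and 26.1 CPM in gpc4 mutants and 220.2, 82.4, 88.6 and 30.9 CPM in WT, which overlapped. The overlapping 30.9 CPM was that of WT replicate 4, which has no gpc4 mutant of its number. In the block fit that embryo adds nothing to the difference between genotypes, so the fthl31 call leaves it out. Gpc4 and CR847906.1 had an adjusted p of 0.102 under the block, zp3 0.176 and rbp7b 0.302. Without WT replicate 1, 38 of 9380 genes were called (0.405%), 18 higher (0.192%) and 20 lower (0.213%). Of the 35 of these placed on a chromosome in RefSeq's GRCz12tu annotation, 9 (25.7%) lay on the chromosome of gpc4, against 4.13% of the 8870 tested genes that were placed. These 9 were aga, qdpra, gpc4, spata4, cyp4v7, mrnip, sqstm1, frmpd1b and sncb.

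Neuronal genes were mostly not called. Of 35 tested genes of neuronal differentiation outside the rule, 0 were called in gpc4 mutants against all 4 WT embryos, with a median log2 fold change of 0.17 against -0.0050 over all genes. The sign of this median depended on the fit. It was -0.044 without WT replicate 1 (14 genes positive and 21 negative, median of all genes 0.011), -0.096 over 20 genes at 3000 UMIs and -0.25 over 23 genes at 3000 UMIs without that embryo. The dact1/2 mutants shifted likewise over 34 tested genes, from 0.027 (20 positive and 14 negative) to -0.165 (8 and 26) without WT replicate 1. At 3000 UMIs their medians were -0.0012 over 23 genes and -0.091 over 25 genes without that embryo. The shift was thus not particular to gpc4 mutants. In gpc4 mutants without WT replicate 1 the growth cone gene gap43 was called. It had 5.82, 8.35 and 5.81 CPM in gpc4 mutants, against 0.936, 33.6, 21.6 and 22.2 CPM in WT. It fell by 1.81 (SE 0.276, adjusted p = 0.0241), a call that WT replicate 1, with 0.936 CPM, removed (adjusted p = 1). Sncb had 15.6, 25.9 and 24.2 CPM in gpc4 mutants and 1.87, 46.3, 64.9 and 39.5 CPM in WT, and fell by 1.14 without WT replicate 1 (SE 0.230, adjusted p = 0.0940). In the 411 cells at 3000 UMIs sncb fell by 1.91 without that embryo (SE 0.364, adjusted p = 0.0378), 1 of 6 calls among 1395 genes (0.43%), and gap43 was below the count filter. The embryonic globin gene hbae3 rose by 2.46 without WT replicate 1 (SE 0.323, adjusted p = 0.0115), with 31.2, 20.0 and 39.7 CPM in gpc4 mutants and 0.624, 4.67, 5.41 and 7.30 CPM in WT. All 7 blood and vessel markers had UMIs in the selected cells and summed to 86.4 to 189 CPM in gpc4 mutants, against 28.3 to 112 CPM in WT, and the part of such RNA in the other differences was not tested.

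**Figure D5:**
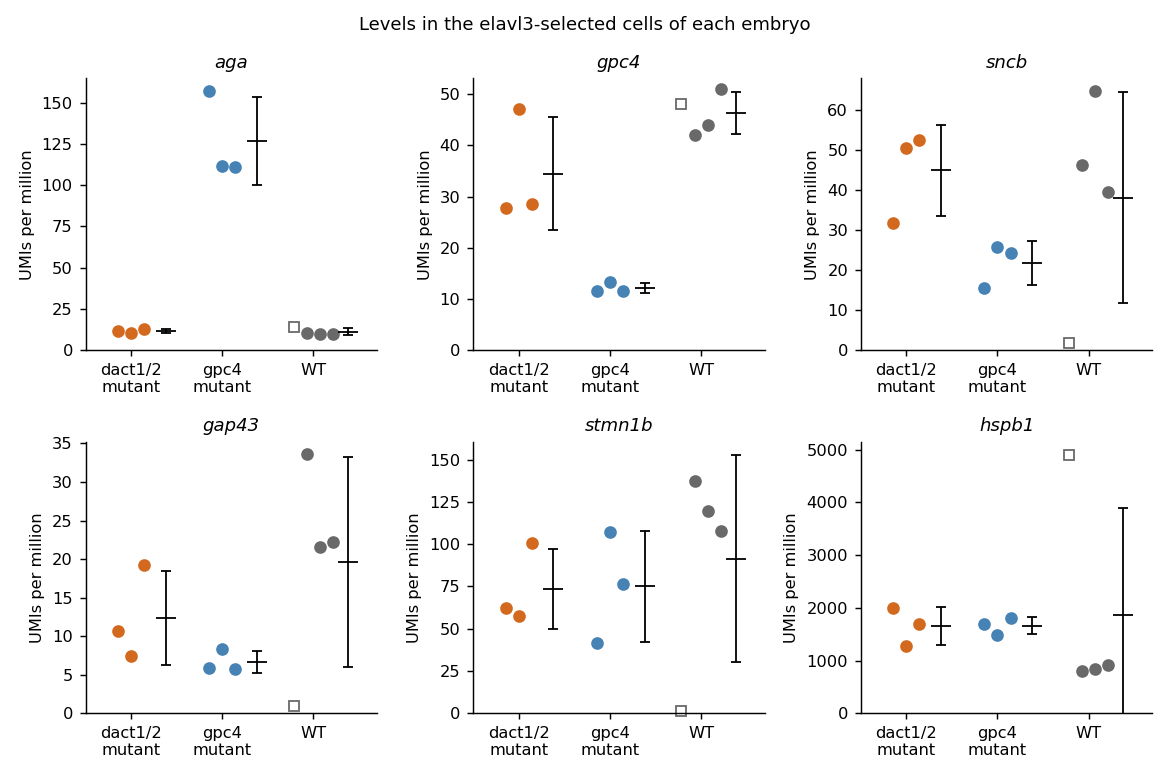
Levels (CPM) of 6 genes in the elavl3-selected cells of each embryo. Points are embryos, the open square is WT replicate 1, and the bars give mean and SD. Aga lies at 111 to 157 CPM in gpc4 mutants and at 9.57 to 14.0 CPM in WT, while for gap43, sncb, stmn1b and hspb1 WT replicate 1 lies outside the range of the other WT embryos. The SD bar of hspb1 in WT is cut off at 0.

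The mutants were compared in a fit of all 10 embryos, where 5 of 10172 genes were called (0.0492%). Aga was lower in dact1/2 than in gpc4 mutants (log2 fold change -3.42, SE 0.289, adjusted p = 0.000412). Zp3 (2.95, SE 0.346, adjusted p = 0.00825), crygn2 (2.89, SE 0.376, adjusted p = 0.0160), spata4 (3.84, SE 0.517, adjusted p = 0.0168) and gpc4 (1.52, SE 0.218, adjusted p = 0.0265) were higher. Crygn2 had 25.5, 24.9 and 23.6 CPM in dact1/2 mutants and 2.82, 2.92 and 5.81 CPM in gpc4 mutants. The comparisons with WT share the same WT embryos.

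A genotype effect in the elavl3-selected cells was tested against that in SoxB progenitors of the same embryos. For dact1/2 mutants 1 of 10855 genes was called (0.00921%), the somite boundary gene ripply2 (difference of log2 fold changes 3.55, SE 0.538, adjusted p = 0.0886), with 7.71, 4.38 and 9.84 CPM in the selected cells of dact1/2 mutants and 0.936, 0, 2.50 and 0.995 CPM in WT. Without WT replicate 1 it was not called (adjusted p = 0.363). The 8 paraxial mesoderm markers all had UMIs in the selected cells and summed to 239 to 394 CPM in dact1/2 mutants and 254 to 375 CPM in WT, and their part was not tested. For gpc4 mutants 0 of 10975 genes were called by edgeR, 290 had an unadjusted p under 0.05, and no other tool was run. Those 290 are also fewer than that limit alone would pass with no difference. The difference for aga was 0.19 (SE 0.235, adjusted p = 1) and for gpc4 -0.20 (SE 0.234, adjusted p = 1).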

How the data were processed

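Libraries of 10 whole embryos were made with the 10x Genomics 3′ kit (version 3). Per the labels, Cell Ranger 6.1.0 was run against GRCz11. The deposited values are raw UMI counts of each gene in the droplets taken to be cells (21980 in all), with no normalization. Groups came from the sample labels. Cells were kept at 1500 UMIs, 750 genes and less than 5% mitochondrial UMIs. The authors' further filter on genes per UMI was an alternative. UMIs of the selected cells were summed per embryo, which is the replicate, and tested with edgeR 4.0.16 (limma 3.58.1, R 4.3.3; TMM, filterByExpr, quasi-likelihood test, Benjamini-Hochberg adjustment), with DESeq2 1.42.0 as an alternative. The labels do not say whether embryos of 1 genotype came from separate clutches. Shares were compared with exact permutation tests over all assignments of embryos to genotypes, and the exact 95% intervals came from scipy 1.17.1. Every same-numbered pair of gpc4 mutant and WT embryos correlated over 0.1 in its deviations from the group means (0.125 to 0.285, 3 pairs). The main tests of genes and the permutation tests did not use this pairing. For gpc4 mutants against WT a fit with the replicate number as a block is given beside the main one. WT replicate 4 is alone in its block there and adds nothing to the difference between genotypes. The test was checked on simulated data in which all embryos shared 1 spread and none stood apart. That check does not cover an embryo such as WT replicate 1. The cells, the gene lists and the tests were chosen with earlier results of these data known. The text names the genes of the rule, the targeted genes and capn8. It also names some, not all, of the listed genes, of the 15 of highest fold and of the called genes of smallest p. Other genes were chosen after their values were seen: gap43, sncb, hspb1 and fthl31 in the genotype comparisons, and the co-detected genes. Of 25107 gene IDs, 23499 (93.6%) matched the table of names.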

Additional observations from a re-analysis of the deposited data

Results flagged for a closer look

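In 8 of the 38 groups of 4 WT embryos examined, 1 embryo lay far from the others, and it was WT replicate 1 each time. Chance puts about 1 in 20 groups past that limit, and the genes were chosen partly for differences from WT without this embryo. In its elavl3-selected cells zgc:65851 had 58.6 CPM, the crystallin gene crygmx 15.3 CPM, the receptor gene gpr19 21.8 CPM, qdpra 19.7 CPM, si:ch73-144d13.4 27.4 CPM, znf1005 8.11 CPM, the ubiquitin ligase gene rnf126 19.7 CPM and the heat shock gene hspb1 4897 CPM. Rnf126 was lowest in this embryo among the WT embryos and the other 7 genes were highest. The ripply2 effect of dact1/2 mutants against WT differed between elavl3-selected cells and SoxB progenitors by 3.55 on the log2 scale in the test of that difference (edgeR, adjusted p = 0.0886).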

How the results depend on the processing

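Many of these cells carry few molecules of the rule genes. The cells found varied with depth, and low genes such as dact1 could not be tested. The parts of depth and of doublets in this were not tested. Differences in the share of QC cells, gpc4 mutant minus WT (-0.0145 points), turned positive at 5000 UMIs per cell (0.318), with the filter on genes per UMI (0.163), with at least 2 elavl3 UMIs (0.0261), without drgx and dlb in the rule (0.334) and without the deepest 5% of cells (0.0750). Of elavl3-selected plus SoxB cells, dact1/2 minus gpc4 mutant turned negative at 3000 (-0.0972) and 5000 UMIs (-1.75) and without drgx and dlb (-0.107). None of these passed a test. Leaving out 1 embryo, the shares of QC cells ranged from -0.483 to 1.84 points (dact1/2 against WT), -1.17 to 0.888 (gpc4 against WT) and -0.468 to 2.18 (dact1/2 against gpc4), and at 3000 UMIs from -0.169 to 0.632, -0.554 to 0.247 and 0.0992 to 0.585. Of elavl3-selected plus SoxB cells they ranged from -0.642 to 5.42, -1.97 to 4.99 and -2.53 to 4.84, and at 3000 UMIs from -0.220 to 3.55, -0.122 to 3.65 and -0.858 to 1.03.

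Counts of called genes for dact1/2 against WT, gpc4 against WT and dact1/2 against gpc4 were 0, 5 and 5. These were 0%, 0.0525% and 0.0492% of the 9983, 9525 and 10172 genes tested. The counts were 25, 28 and 40 with no count filter and 16, 31 and 26 with DESeq2. Both took in every gene with a UMI, 19976 for dact1/2 against WT, of which the 16 were 0.0801%. In the cells selected at 3000 UMIs with thinned UMIs they were 1, 0 and 0 of 1734, 1276 and 1929 genes tested. With all UMIs of these cells they were 3 and 8 for gpc4 against WT and dact1/2 against gpc4. The fits tested different numbers of genes, so their counts cannot be compared as shares. A fit of all embryos called 1 and 9 of 10172 genes against WT, and a fit of the 6 mutants called 18. The loss of the deepest 5% of cells gave 7 for dact1/2 against WT. A rule of at least 3 of the 6 genes gave 3 for gpc4 against WT. Leaving out 1 embryo gave 0 to 39, 1 to 38 and 1 to 24, with every highest value without WT replicate 1. The 39 and 38 were 0.408% and 0.405% of the genes tested. Effects that differ from SoxB progenitors numbered 47 and 75 with no filter, and 0 to 5 and 0 to 2 without 1 embryo. At 3000 UMIs 124 genes were 2-fold above SoxB progenitors, against 9 over all UMIs. With the replicate number as a block, 0, 2 and 8 of the same 9983, 9525 and 10172 genes were called. Of the 9 same-numbered pairs of embryos 7 correlated over 0.1 (-0.0564 to 0.494), against 4 of 24 differently numbered pairs (-0.489 to 0.201). Where dact1/2 mutants entered, 1 pair was under 0.1 in each comparison, and the numbers were not taken to pair those embryos. Yet the highest values, 0.494 and 0.320, were those of dact1/2 and gpc4 mutants (replicates 1 and 2). They lay above every pair of gpc4 mutant and WT embryos, and the main test of dact1/2 against gpc4 mutants did not use them.

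Of 378 values of single genes under alternatives 295 kept direction and side of the threshold, 38 lost a call, 35 gained one and 10 turned. The gene zgc:65851 in dact1/2 mutants against WT was -0.22 without the deepest cells and -0.81 with all UMIs of the cells selected at 3000 UMIs, and ranged from -0.23 to 1.92 without 1 embryo. Gpr19 ranged from -0.22 to 2.85. The causes were not tested.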
